A study of Mus musculus with 18 samples.

Results

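The comparison described here set sorted cells of the mouse embryonic heart at E16.5 against the same sorted population at E14.5, the last 2 days of a series that ran daily from E11.5. Its members are the 3 arrays labelled E16.5 and the 3 labelled E14.5, 6 of the 18 arrays in all, read across the genes on chromosomes other than X and Y. Of 18262 such genes with a named probe on the Illumina array, 12409 had a probe above background on at least 3 of the 18 arrays and were tested. Every group came from embryos carrying the Wt1GFPKI allele, in which green fluorescent protein (GFP) is placed at the Wilms tumour gene. Per the labels, heart ventricles were dispersed with enzymes, GFP-positive cells of the population marked (M) were isolated by fluorescence sorting and lysed straight away, and total RNA was labelled. No sex, litter, number of embryos or pooling is given, and GFP-negative cells were not among the samples. Since nothing in the labels says that replicates came from separate embryos, p-values measure the spread between these samples only, which may be technical.

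By this time of gestation the ventricular wall is thickening, the coronary vessels have joined the aorta and a capillary bed spreads through the muscle. Fibroblasts, largely descended from the epicardium, settle between the myocytes and lay down matrix. Cardiomyocytes meanwhile replace embryonic and atrial forms of their contractile proteins, build up mitochondria and sarcoplasmic reticulum, and begin to divide less. Wt1 marks the epicardium, the sheet of mesothelium around the heart, and cells that leave it. The GFP allele is therefore often used to collect epicardial cells, whereas the series title calls the cells cardiomyocytes.

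The levels of marker genes bear on that label. All 24 tested cardiomyocyte contractile markers were above background on every array, with summed intensities of 134953 to 141547 at E16.5 and 126948 to 132786 at E14.5. Epicardial and mesothelial markers were dim, with sums over 13 genes of 699 to 929 at E16.5 and 609 to 639 at E14.5. These 13 are the tested part of a list of 19, and Wt1 itself was not tested. Of the 13, 8 to 10 were above background on an E16.5 array and 7 to 9 on an E14.5 array. Tcf21 (means 8.30 and 7.31) and Sulf1 (8.36 and 6.58) were above it on every array of both stages. Aldh1a2, the retinoic acid synthase of the epicardium, and the mesothelial genes Upk1b, Msln and Bnc1 were above background on no E14.5 array, and Bnc2 on no E16.5 array. Fibroblast markers summed to 9611 to 13330 at E16.5 and to 6476 to 6644 at E14.5, and endothelial markers to 3078 to 5487 and to 1603 to 1638 at the same stages. Erythroid sums ran from 8253 to 23210 at E16.5 and from 12547 to 14035 at E14.5. The arrays thus carried a strong cardiomyocyte signal together with markers of other heart and blood cells. In RNA from many cells, fewer cells of a type and less RNA per cell cannot be told apart, and this holds for every gene list below.

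The E14.5 arrays stood apart from the other stages in a further respect. Eif2s3y, a Y-linked gene, gave log2 intensities of 8.21, 6.59 and 7.78 at E16.5, against 4.61, 4.32 and 4.46 at E14.5, all 3 below the background limit of 5.02. Xist, the X-inactivation transcript, gave 4.59, 10.12 and 9.99 at E16.5 and 10.23, 10.54 and 10.57 at E14.5. Xist without Eif2s3y was seen on the 3 E14.5 arrays only, 11 of the 18 arrays had both, and 4 had Eif2s3y without Xist. The spread differed too. The median SD over probes was 0.167 at E16.5 and 0.112 at E14.5, the lowest of the 6 stages, and arrays correlated at 0.98 to 0.989 within E16.5 and at 0.992 to 0.994 within E14.5. Stage and the sex-linked signal go together in this comparison, so results are given below with the Y-linked level as a covariate where that changes a count. The covariate, the mean of Eif2s3y, Kdm5d and Uty over all 18 arrays, left the median change of the 1201 called genes at 102% of its size and 1192 of them with the same sign. The median standard error of those genes was 1.88 times as large, and 163 of them still passed. Of the genes in the covariate, Kdm5d was also below background on the E14.5 arrays (4.76, 4.91 and 4.58). Uty was above it there (5.83, 5.27 and 5.35) and overlapped its E16.5 values (5.34, 5.39 and 5.24). Uty thus did not follow Eif2s3y, and the covariate is not a measure of Eif2s3y alone. The part of the sex-linked signal in the results was not tested beyond this.

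**Figure D1:**
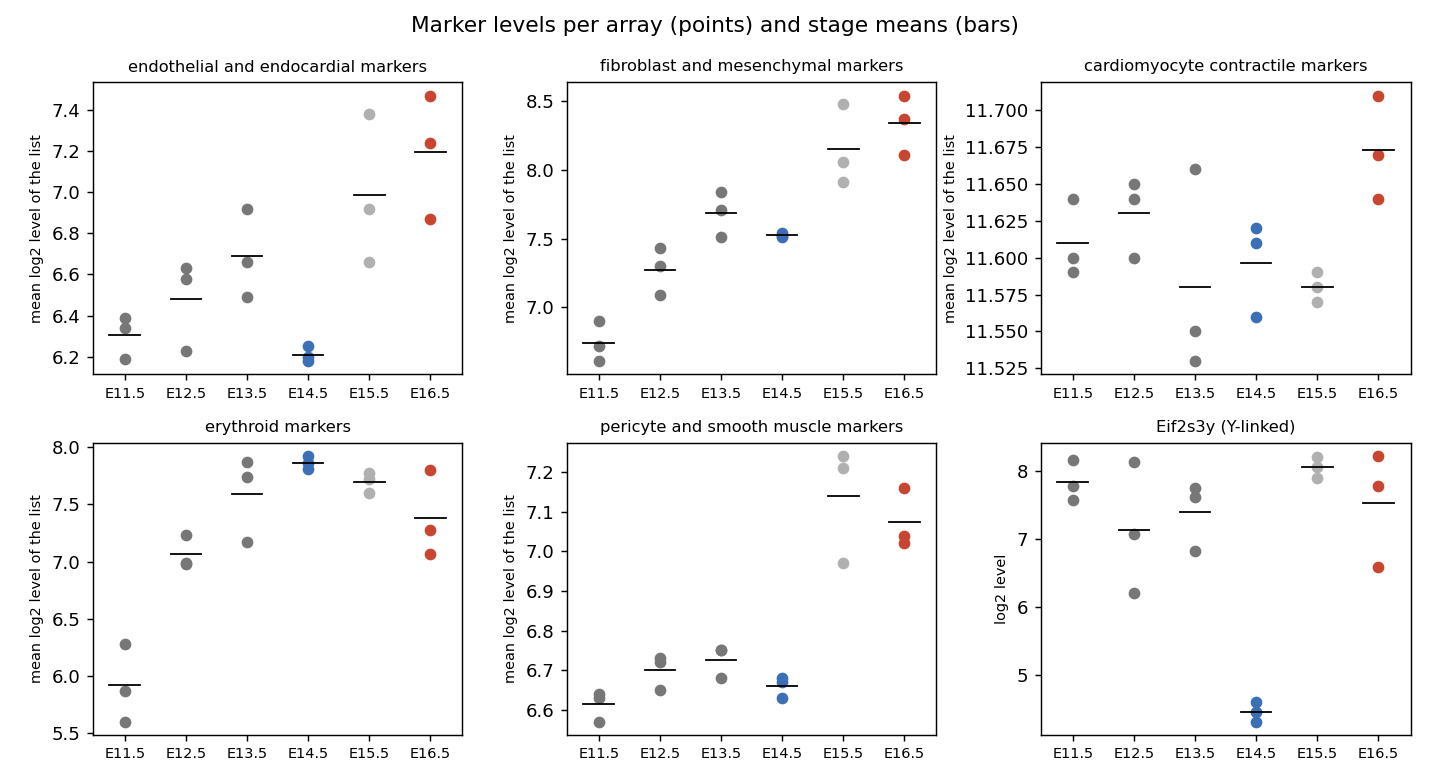
Mean log2 level of the tested genes of 5 cell type lists and the log2 level of Eif2s3y, on each array (points) and as stage means (bars), from E11.5 to E16.5; each panel has its own vertical range. The endothelial means are 6.69 at E13.5, 6.21 at E14.5 and 7.19 at E16.5, and Eif2s3y is below 5 at E14.5 alone.

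Over the 2 days 646 genes rose (5.21% of those tested) and 555 fell (4.47%), which makes 1201 genes called (9.68%) at a limma adjusted p under 0.05. The change was 2-fold or more for 141 that rose and 58 that fell, and its median over all tested genes was -0.01 on the log2 scale. At the level of probes, 853 rose and 746 fell (7.95% of 20109). For 3647 genes (29.4%) the 3 arrays of one stage did not overlap those of the other. Counts of genes fell to 120 up and 50 down with the Y-linked covariate. Leaving out 1 array moved the rises by over 1.5 times without E14.5 replicate 2 (430) or replicate 3 (405). It moved the falls as far without E16.5 replicate 3 (284) or E14.5 replicate 1 (291), replicate 2 (320) or replicate 3 (287).

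Genes of the capillary wall, of the connective tissue and of mature muscle led the rises, for which no overlap between the stages was required. Cldn5, the claudin of endothelial tight junctions, had log2 intensities of 8.66, 9.72 and 9.37 at E16.5, against 6.21, 6.18 and 6.13 at E14.5. This was a change of 3.08 ± 0.37 (SE, n = 3 each, limma adjusted p = 5.43e-06), or 8.44-fold. Every E16.5 array was far above every E14.5 array, and the E14.5 values were nearly equal. Cav1, which builds the flask-shaped pits called caveolae, had 9.38, 9.97 and 10.24 at E16.5 and 7.01, 7.07 and 7.12 at E14.5. Its change of 2.80 ± 0.26 (SE, limma adjusted p = 1.59e-07) was 6.97-fold. The E13.5 means, 6.60 for Cldn5 and 7.62 for Cav1, also lay below every E16.5 array.

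Dlk1, an imprinted membrane protein of the Delta family, stood at 11.69, 11.91 and 11.46 at E16.5 and at 9.07, 9.06 and 9.11 at E14.5, a 6.10-fold rise (2.61 ± 0.23, SE, limma adjusted p = 6.97e-08). Scara5, a scavenger receptor that takes up ferritin, had 7.12, 7.57 and 7.43 at E16.5, whereas at E14.5 its values were 5.12, 4.85 and 4.82 and only 1 of 3 arrays was above background. Dpt, the matrix protein dermatopontin, had 6.80, 7.47 and 7.29 at E16.5 and was not above background at E14.5 (4.88, 4.62 and 4.93), which makes the rise at least 4.5-fold by the mean of the lowest signals measurable on those arrays. Dhrs7c, an enzyme of the sarcoplasmic reticulum, had 7.86, 8.29 and 8.51 at E16.5 and 5.86, 5.94 and 5.72 at E14.5, 5.20-fold. The muscle genes among the leading rises had narrower spreads at E16.5 than Aqp1 and Rbp7, whose lowest E16.5 array was replicate 1. The other genes among the 15 largest rises were Col15a1, Aqp1, Rbp7, Gpihbp1, Cavin4, Cygb, Aoc3, Col6a1 and Myom2. Cygb, a globin of fibroblast-like cells, rose 4.27-fold, and Aoc3, an amine oxidase of vascular adhesion, rose 4.20-fold.

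**Figure D2:**
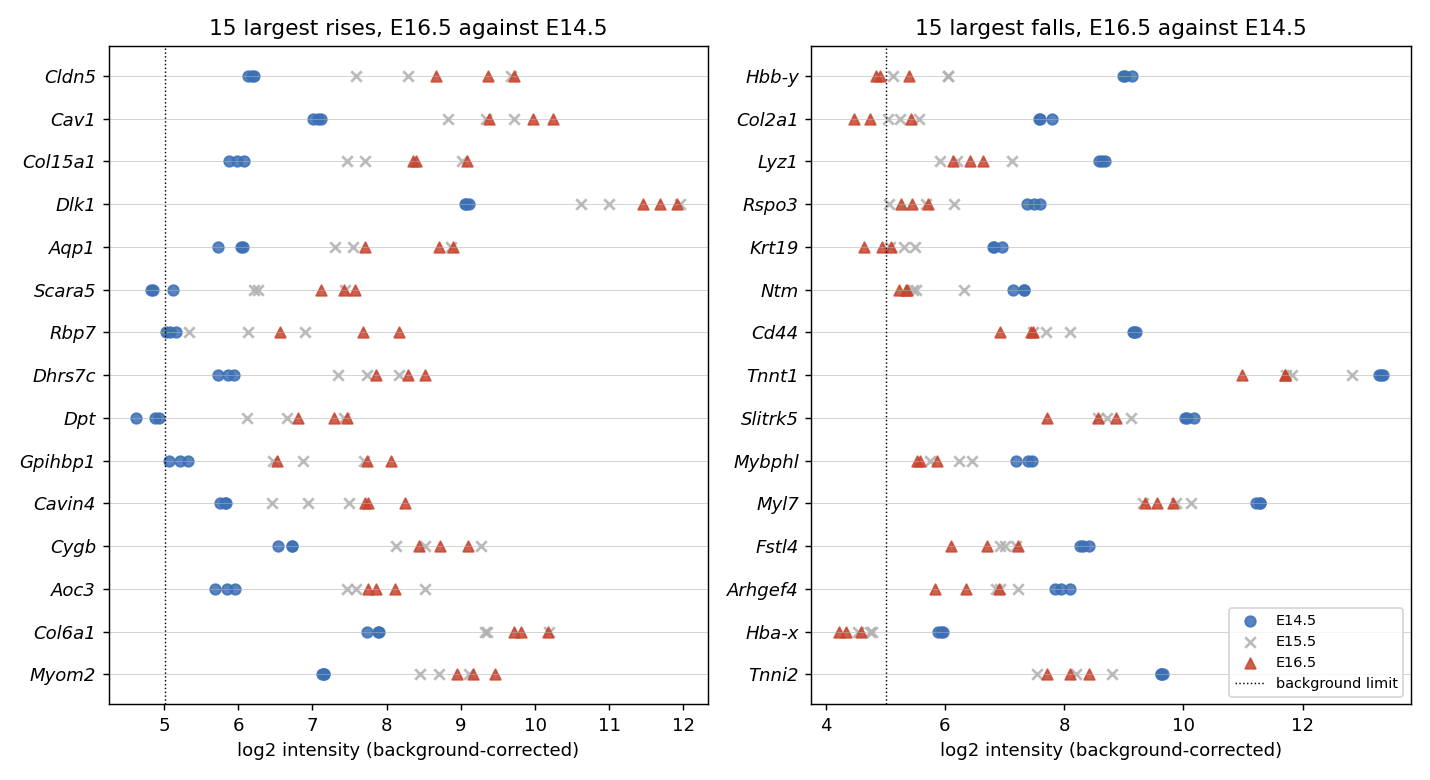
Log2 intensity of the 15 genes that rose most (left) and the 15 that fell most (right), with 3 arrays each at E14.5 (circles), E15.5 (crosses) and E16.5 (triangles); the dotted line is the background limit of 5.02. The triangles and circles are apart in every row, which the choice of genes required, and the E15.5 crosses lie mostly toward the triangles.

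The falls were led by an embryonic globin, a cartilage collagen and genes of epithelium and of other muscle types. Col2a1, the main collagen of cartilage, had 4.74, 5.44 and 4.47 at E16.5, with 1 of 3 arrays above background, against 7.58, 7.79 and 7.59 at E14.5 (-2.77 ± 0.21, SE, limma adjusted p = 1.55e-08). Lyz1, a lysozyme gene with the close copy Lyz2, had 6.13, 6.42 and 6.64 at E16.5 and 8.63, 8.59 and 8.69 at E14.5, and was 4.73-fold lower at E16.5. Cd44, the receptor for hyaluronan, was 3.71-fold lower at E16.5, with 7.45, 7.47 and 6.92 there and 9.17, 9.15 and 9.20 at E14.5. That no E16.5 array reached an E14.5 array in these genes was a condition for naming them. For Cd44, 2 further probes had the opposite sign without passing the test, so the fall holds for its brightest probe. Probes of opposite sign that did not pass were also seen, 2 each for Igf2bp3 and Myh7 and 1 each for Scara5, Cmya5, Bmp7 and Pdgfra. Genes known from neurons were also among the 15. Ntm, a cell adhesion molecule, was 3.86-fold lower at E16.5, and Slitrk5, a membrane protein of synapses, was 3.26-fold lower. Slitrk5 had 8.87, 8.56 and 7.72 at E16.5 and 10.02, 10.06 and 10.18 at E14.5, so it was bright at both stages. Fstl4, of the follistatin-like family, fell 3.13-fold, and Arhgef4 fell 3.02-fold.

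The embryonic globins Hbb-y and Hba-x fell over these days, while the adult globins did not pass the test. A further embryonic globin, not above background at E16.5, did not pass either. Embryonic globins are made by the first, yolk sac derived red cells, and adult globins by the red cells of the fetal liver that replace them. Hbb-y, an embryonic beta-like globin, had 4.84, 5.39 and 4.91 at E16.5 and 9.13, 9.02 and 8.99 at E14.5. It was 16-fold lower at E16.5 (-4.0 ± 0.32, SE, limma adjusted p = 2.15e-08), with only 1 of 3 E16.5 arrays above background. Hba-x, the embryonic zeta globin, was not above background at E16.5 (4.22, 4.34 and 4.59, against 5.97, 5.89 and 5.94 at E14.5) and was at least 1.89-fold lower. The fall of Hba-x did not pass with the Y-linked covariate (limma adjusted p = 0.483). Hbb-bh1, another embryonic beta-like globin, gave -0.38 and did not pass (limma adjusted p = 0.118). It was above background on no E15.5 and no E16.5 array, so the size of its change was limited by the background. Among the adult globins Hbb-bs had 11.60, 13.10 and 12.18 at E16.5, around its E14.5 values of 12.37, 12.29 and 12.17 (change 0.01, limma adjusted p = 0.993). Hbb-bt and Hba-a1 likewise ran highest on E16.5 replicate 2 and lowest on replicate 1, and their probes cannot be assigned to 1 of several near-identical copies. Of the 10 erythroid genes tested, 2 fell, Hbb-y and Hba-x, and 1 rose, the transferrin receptor Tfrc (0.76 ± 0.12, SE, limma adjusted p = 0.000183), which did not pass with the Y-linked covariate (adjusted p = 0.0978). The rise was 10% of the list and the falls were 20%, against 5.21% and 4.47% of all genes. The median of the list was -0.11.

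The promoters of these globins and of Cldn5 are printed because they stand before the gene that fell most, its embryonic partner, an adult globin with a level that overlapped between the stages, and the gene that rose most. Each is the 160 bases before the annotated start on RefSeq assembly GRCm38.p6, 5′ to 3′ on the strand of the gene, with matches on either strand to the CACCC motif, the CCAAT motif and the TATAAA motif in capitals; the motifs were chosen after the values were seen and do not overlap each other here. The stretches are chr7:103853208-103853367 (minus strand) for Hbb-y, chr11:32276440-32276599 (plus) for Hba-x, chr7:103827929-103828088 (minus) for Hbb-bs and chr16:18776687-18776846 (plus) for Cldn5.
Hbb-y: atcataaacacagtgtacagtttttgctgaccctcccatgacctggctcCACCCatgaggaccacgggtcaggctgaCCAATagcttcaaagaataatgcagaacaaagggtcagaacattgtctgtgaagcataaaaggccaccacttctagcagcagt
Hba-x: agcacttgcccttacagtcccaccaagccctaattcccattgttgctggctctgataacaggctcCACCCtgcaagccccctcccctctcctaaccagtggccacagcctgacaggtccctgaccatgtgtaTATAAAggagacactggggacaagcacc
Hbb-bs: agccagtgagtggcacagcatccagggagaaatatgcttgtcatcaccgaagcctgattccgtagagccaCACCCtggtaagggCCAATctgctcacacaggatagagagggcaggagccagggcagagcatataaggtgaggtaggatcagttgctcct
Cldn5: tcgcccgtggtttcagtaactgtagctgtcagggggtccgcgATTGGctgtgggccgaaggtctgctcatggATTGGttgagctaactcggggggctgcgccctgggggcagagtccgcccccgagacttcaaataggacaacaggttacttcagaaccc

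All 3 globin stretches hold CACCC, beginning at -111 in Hbb-y, -95 in Hba-x and -90 in Hbb-bs, where -1 is the base before the start. CCAAT begins at -83 in Hbb-y and -76 in Hbb-bs, and Cldn5 holds its reverse complement ATTGG at -118 and -88. TATAAA was found in Hba-x alone of the 4, at -28. Of 32851 RefSeq promoters searched in the same 160-base window, 39.2% held CACCC, 25.6% CCAAT and 8.01% TATAAA. The CACCC motif was thus in both globins that fell and in an adult globin that did not pass the test.

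Endothelial genes and those of capillary lipid transport had the largest shares rising among lists with more than 1 gene tested. Among the 20 endothelial and endocardial genes tested, 15 rose and none fell, with a median change of 1.13, against 5.21% of all genes rising. Esam, an adhesion molecule of endothelial junctions, had 8.58, 9.49 and 9.35 at E16.5 and 7.33, 7.16 and 7.28 at E14.5, a 3.69-fold rise. Aplnr, the apelin receptor of growing coronary vessels, had 5.95, 7.02 and 6.98 at E16.5 and was above background on 1 of 3 arrays at E14.5 (4.91, 5.24 and 4.98). Cdh5, the cadherin that joins endothelial cells, rose 2.55-fold (1.35 ± 0.19, SE, limma adjusted p = 3.61e-05), and Pecam1, a surface marker of all endothelium, rose 2.18-fold. E16.5 replicate 1 was the lowest of its stage in Esam, Aplnr and Pecam1. The genes that did not pass were Kdr (0.11), Tie1 (0.24), Plvap (-0.18) and the endocardial genes Npr3 (-0.23) and Nfatc1 (-0.42). Endothelial levels at E14.5 also lay below those of the day before: the summed markers were 1603 to 1638 at E14.5 and 2044 to 3033 at E13.5, and Cdh5 averaged 5.88 at E14.5 and 6.81 at E13.5. In the fit with the Y-linked covariate 10 of the 20 rose, and 14 or 15 did so when any 1 replicate was left out.

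The list of capillary lipid transport and caveolae, the machinery by which heart capillaries take in fatty acids, had 10 of 14 genes rising and none falling (median 0.68). Gpihbp1, which carries lipoprotein lipase to the inner face of capillaries, had 6.52, 7.73 and 8.06 at E16.5 and 5.32, 5.22 and 5.07 at E14.5, a 4.71-fold rise. Rbp7, a retinol-binding protein of capillary endothelium, had 6.56, 7.68 and 8.17 at E16.5 and 5.08, 5.02 and 5.16 at E14.5, and rose 5.22-fold. Aqp1, the water channel of capillaries and red cells, had 7.71, 8.90 and 8.71 at E16.5 and 6.06, 5.73 and 6.04 at E14.5. All 3 were lowest on replicate 1 within E16.5. No array of E14.5 reached it, which was a condition for naming these genes among the largest rises. Lpl, the lipase itself, rose by a smaller 0.54, and so did the caveolar coat gene Cavin2 (0.59). Cavin4, a coat protein made by muscle, had 7.75, 7.71 and 8.25 at E16.5 and 5.76, 5.82 and 5.83 at E14.5 (2.10 ± 0.18, SE, limma adjusted p = 4.04e-08). The 10 rises were 71.4% of the list, against 5.21% of all genes, and 6 were counted with the Y-linked covariate.

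Of 19 angiogenic and arteriovenous signals, 6 rose (31.6%) and 2 fell (10.5%), against 5.21% and 4.47% of all genes (median 0.11). Pdgfb, the growth factor by which endothelium recruits pericytes, had 6.83, 7.57 and 7.2 at E16.5 and 5.17, 5.55 and 5.74 at E14.5, 3.28-fold. Flt1, a receptor and trap for VEGF, rose 2.40-fold. Cxcl12, a chemokine that guides coronary vessels, had 8.68, 8.77 and 8.59 at E16.5 and 9.74, 9.81 and 9.67 at E14.5, 2.08-fold lower at E16.5. Its receptor Cxcr4 rose by 0.50 and Vegfc, a growth factor for lymphatic and coronary sprouts, fell by 0.46, whereas Vegfa gave -0.04 and did not pass. The fit with the Y-linked covariate left 3 rises and no fall in limma, with an adjusted p of 0.143 for Cxcl12. Without E16.5 replicate 2, E16.5 replicate 3, E14.5 replicate 2 or E14.5 replicate 3 only 1 of the 2 falls passed.

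In the list of pericytes and smooth muscle, 6 of 12 genes rose (50%) and 1 fell (8.33%), against 5.21% and 4.47% of all genes. The median was 0.35. Rgs5, a regulator of G protein signals that marks pericytes, had 6.84, 7.51 and 8.14 at E16.5 and 5.40, 5.50 and 5.68 at E14.5, a 3.93-fold rise (1.97 ± 0.26, SE, limma adjusted p = 1.23e-05). Higd1b, another pericyte marker, was not above background at E14.5 and rose at least 1.68-fold. Pdgfrb, the receptor for Pdgfb, rose 1.74-fold, and Kcnj8, a potassium channel subunit of pericytes, rose 1.54-fold. The smooth muscle genes Acta2 (-0.03), Tagln (-0.46) and Cnn1 (0.14) did not pass. Vtn, a pericyte marker above background on no array of either stage, gave 0.24 and Cspg4 gave 0.06, also without passing. Mcam, an adhesion molecule of vessel walls, fell by 0.52, a call lost without E16.5 replicate 3 or any E14.5 replicate. The count of rises was 2 without E16.5 replicate 3, 3 without E14.5 replicate 3, and 2 with the Y-linked covariate, where Mcam did not pass.

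Connective tissue genes rose widely as well. Of 20 fibroblast and mesenchymal genes 10 rose (50%, against 5.21% of all genes) and none fell. The median was 0.64, and 19 of the 20 changes were positive. Col1a1, the chain of the main fibrillar collagen, had 9.34, 9.97 and 9.25 at E16.5 and 7.60, 7.60 and 7.61 at E14.5 (1.92 ± 0.23, SE, limma adjusted p = 3.68e-06), 3.77-fold. Lum, a small proteoglycan that spaces collagen fibrils, had 8.26, 8.98 and 9.71 at E16.5 and 7.12, 7.03 and 7.14 at E14.5, 3.69-fold. Dcn, its relative decorin, was the brightest of them, with 11.34, 11.76 and 11.97 at E16.5 and 9.99, 9.93 and 10.06 at E14.5. Both proteoglycans ran lowest on replicate 1 and highest on replicate 3 at E16.5, while Col1a1 was highest on replicate 2. Pdgfra, the receptor that marks cardiac fibroblasts, rose 1.77-fold with a limma adjusted p of 0.0488, and the call was lost on leaving out any replicate but E16.5 replicate 1. Vim (0.10), Fn1 (0.45), Sparc (0.34) and Tnc (-0.26) were among the 10 that did not pass. Fibroblast levels at E14.5 also lay below those of the day before. The summed markers were 6476 to 6644 at E14.5 and 8592 to 9114 at E13.5. Col1a1 averaged 7.60 at E14.5 and 8.32 at E13.5, whereas Lum averaged 7.10 at E14.5 and 6.63 at E13.5. The Y-linked covariate left 5 rises.

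Collagens followed the same course: 11 of 19 rose (57.9%) and 1, Col2a1, fell (5.26%), with a median of 0.91. Of all genes 5.21% rose and 4.47% fell. Col15a1, found where capillaries and muscle meet their basement membrane, had 8.36, 9.08 and 8.40 at E16.5 and 6.08, 5.88 and 5.98 at E14.5, a 6.2-fold rise. Col6a1, of the beaded filaments around cells, rose 4.16-fold, and Col14a1, which lies on fibril surfaces, rose 3.93-fold. Against the E13.5 mean of 8.77 the Col6a1 level was 9.81, 10.17 and 9.72 at E16.5 and 7.88, 7.74 and 7.90 at E14.5, so it was lower at E14.5 than at either of those stages. In the basement membrane pair, Col4a2 rose by 0.81 and Col4a1 gave 0.24 without passing. Among 18 proteoglycans, elastic fibre and matrix enzymes 7 rose (38.9%) and 2 fell (11.1%), with a median of 0.20. Prelp and Ogn, further small proteoglycans, rose 3.21-fold and 2.65-fold, and the cross-linking enzyme Lox (1.23) and the gelatinase Mmp2 (1.33) rose too. Versican, Vcan, the large proteoglycan of early cardiac jelly, fell by 0.81, and Ltbp1, which stores TGF-beta, fell by 0.83. Elastin, Eln, gave -0.93 without passing. Under the Y-linked covariate 6 collagens rose and 1 fell, and 5 of the matrix genes rose while neither of the 2 matrix falls passed.

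The epicardial and mesothelial list split by gene: 2 of 13 rose (15.4%) and 3 fell (23.1%), against 5.21% and 4.47% of all genes (median -0.01). The falls were the keratins of simple epithelium. Krt19 had 5.10, 4.94 and 4.64 at E16.5, with 1 of 3 arrays above background, against 6.83, 6.80 and 6.95 at E14.5, and was 3.91-fold lower at E16.5 (-1.97 ± 0.15, SE, limma adjusted p = 1.72e-08). Krt18 had 5.28, 5.24 and 5.0 at E16.5 and 6.69, 6.62 and 6.45 at E14.5, and Krt8 fell by 0.71. The rises were Tcf21, a transcription factor of epicardial cells that become fibroblasts, and Sulf1, a sulfatase acting on heparan sulfate. Tcf21 had 8.0, 8.54 and 8.36 at E16.5 and 7.49, 7.19 and 7.25 at E14.5 (0.99 ± 0.19, SE, limma adjusted p = 0.00156), though its E13.5 mean was 8.01. Sulf1 rose 3.42-fold. Tbx18, another epicardial transcription factor, gave -0.41 with a limma adjusted p of 0.106, and Aldh1a2 was above background on 2 arrays at E16.5 and none at E14.5 (limma adjusted p = 0.447). The Y-linked covariate left 1 rise, Sulf1, and 2 falls, Krt18 and Krt19, and Tcf21 did not pass there (limma adjusted p = 0.121).

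**Figure D3:**
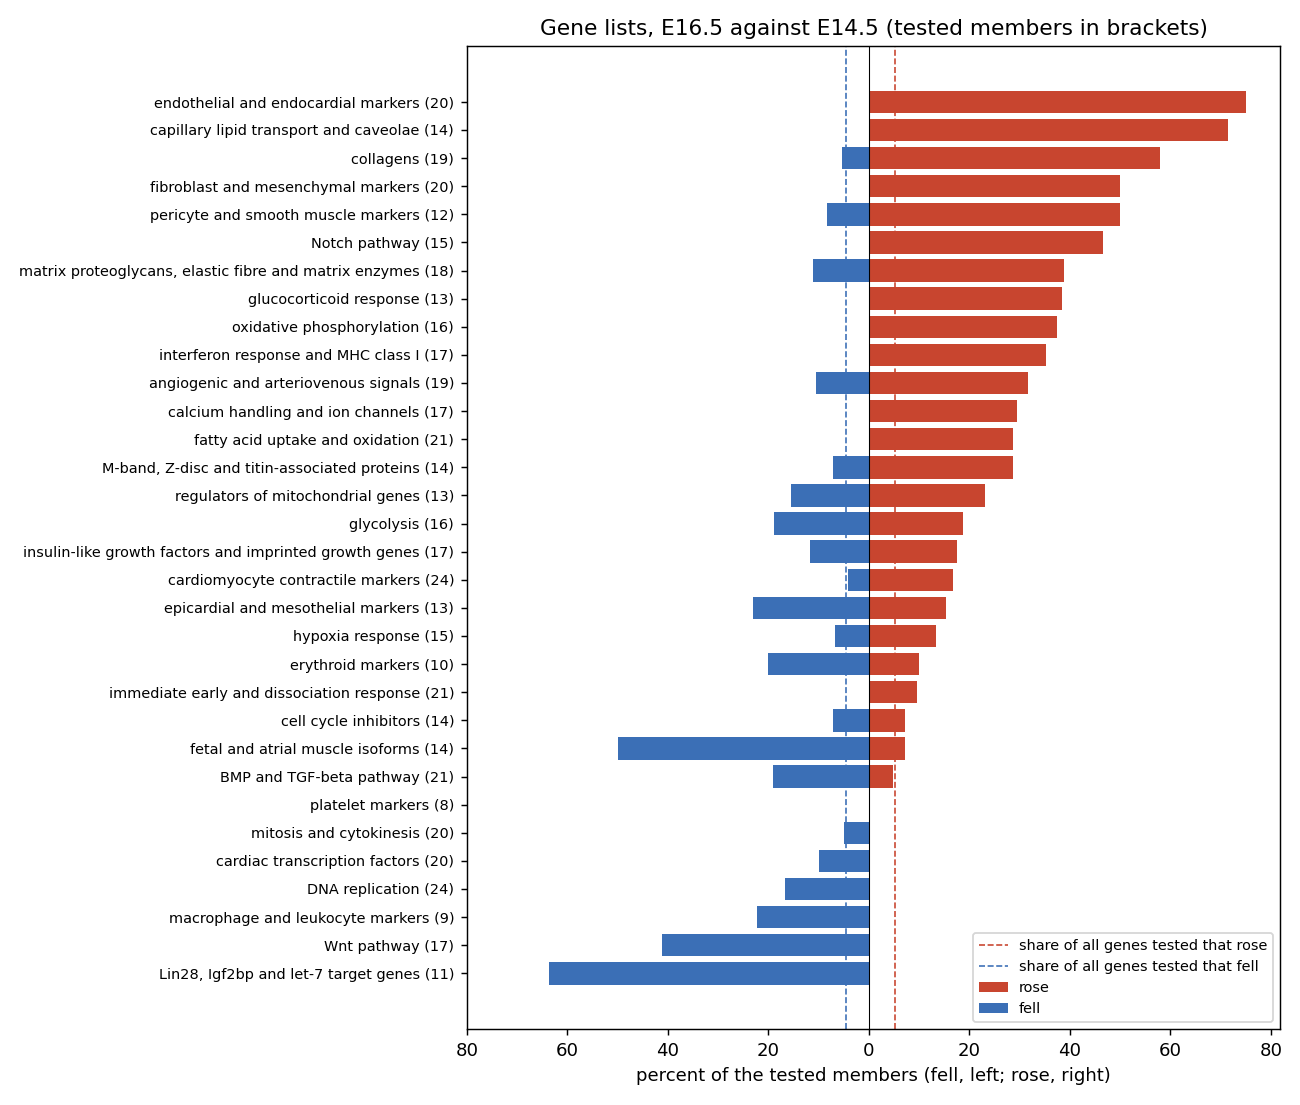
Percent of the tested members of each list that rose (right) or fell (left) at E16.5 against E14.5, with the number tested in brackets; dashed lines give the 5.21% and 4.47% of all tested genes that rose and fell. Endothelial markers (75% rising) stand at the top and the Lin28, Igf2bp and let-7 list (63.6% falling) at the bottom.

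Core contractile genes of the cardiomyocyte moved little in the median (0.09). Of 24 tested, 4 rose (16.7%) and 1 fell (4.17%), against 5.21% and 4.47% of all genes. Ryr2, the calcium release channel, had 10.72, 10.84 and 10.74 at E16.5 and 10.10, 10.25 and 10.21 at E14.5, a 1.5-fold rise. Nppb, the natriuretic peptide, and Tpm1, tropomyosin, each rose 1.47-fold. Myh6, the fast cardiac myosin of the adult mouse, gave 12.03, 11.85 and 11.49 at E16.5 and 11.30, 11.44 and 11.53 at E14.5, with overlap and a limma adjusted p of 0.203. Myh7, the myosin of the fetal ventricle, ranged from 10.75 to 11.85 at E16.5 around E14.5 values of 11.35, 11.40 and 11.39 (0.00 ± 0.20, SE, limma adjusted p = 0.999). Tnni3 and Tnni1, the adult and fetal troponin I, gave 0.49 and 0.46, with limma adjusted p of 0.0865 and 0.083. Neither myosin nor troponin I pair therefore showed a called exchange of isoform at these stages. Without E16.5 replicate 2, E16.5 replicate 3 or any E14.5 replicate, 1 or 2 of the contractile genes rose in place of 4, and with the Y-linked covariate 1 did.

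Of 14 fetal, atrial and skeletal isoforms 7 fell (50%) and 1, Nppb, rose (7.14%), against 4.47% and 5.21% of all genes (median -0.64). Myl7, the regulatory light chain of the atrium, had 9.56, 9.35 and 9.83 at E16.5 and 11.28, 11.22 and 11.28 at E14.5, 3.20-fold lower at E16.5 (-1.68 ± 0.18, SE, limma adjusted p = 1.12e-06). Mybphl, an atrial relative of myosin-binding protein C, had 5.86, 5.54 and 5.58 at E16.5 and 7.46, 7.39 and 7.2 at E14.5. Tnnt1, the slow skeletal troponin T, was very bright with 11.71, 11.71 and 10.98 at E16.5 and 13.31, 13.27 and 13.35 at E14.5, and was 3.59-fold lower at E16.5. No array overlapped in these 3 genes, which was a condition for naming them among the largest falls. For Tnnt1 replicate 3 was the lowest at E16.5. Sln, sarcolipin of the atrium, fell by 1.03, and Gja5, the connexin of atrium and conduction system, was 2.14-fold lower at E16.5. Tnni2, the fast skeletal troponin I, which is on no list, fell 2.93-fold. Nppa, the atrial natriuretic peptide, gave -0.73 without passing, and the rise of Nppb lost its call without E16.5 replicate 3 or E14.5 replicate 3. With the Y-linked covariate 2 of the 7 falls passed, among them Myl7 (limma adjusted p = 0.0252). Neither Tnnt1 (limma adjusted p = 0.153) nor the rise of Nppb (0.598) passed there.

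Proteins of the M-band, which ties myosin filaments at mid-sarcomere, and of the Z-disc, which anchors actin, gave 4 rises and 1 fall among 14. That was 28.6% and 7.14% of the list, against 5.21% and 4.47% of all genes (median 0.09). Myom2, a myomesin of mature fast and cardiac muscle, had 9.46, 8.95 and 9.16 at E16.5 and 7.15, 7.13 and 7.15 at E14.5, a 4.13-fold rise (2.05 ± 0.18, SE, limma adjusted p = 8.15e-08). Its E13.5 mean was 5.34, so it had already climbed before E14.5. The other myomesins did not pass, with 0.10 for Myom1 and -0.07 for Myom3. Fhl2, a LIM protein bound to titin, and Cmya5, myospryn, each rose 1.78-fold, and Ankrd23 rose 1.61-fold. The call of Ankrd23 was lost without E16.5 replicate 3 or E14.5 replicate 2. Its relative Ankrd1, which responds to stretch, fell by 0.60. The Y-linked covariate left 1 of the rises, Myom2, and not the fall.

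Calcium handling and ion channel genes gave 5 rises (29.4%, against 5.21% of all genes) and no fall among 17 (median 0.25). Casq2, the calcium store protein of the cardiac sarcoplasmic reticulum, had 10.29, 10.08 and 10.49 at E16.5 and 9.31, 9.05 and 8.97 at E14.5, a 2.25-fold rise. S100a1, a calcium sensor that tunes the release channel, had 9.58, 9.79 and 10.70 at E16.5 and 9.11, 9.17 and 8.89 at E14.5, and rose 1.96-fold. Atp2a2, the calcium pump, had 13.54, 13.52 and 13.33 at E16.5 and 12.82, 12.95 and 13.09 at E14.5 (limma adjusted p = 0.0445), a call lost when any of the 6 arrays was left out. Kcnj2, the main inward rectifier channel, rose by 0.46. S100a1 averaged 9.65 at E13.5 and 9.06 at E14.5, and its call was lost without E16.5 replicate 3 or E14.5 replicate 3. Store, sensor, pump and release channel (Ryr2, above) were on the rising side, though the calls of sensor and pump depended on single arrays. The calcium channel Cacna1c (-0.04) and the exchanger Slc8a1 (0.13) did not pass. Leaving out any of the 6 arrays gave 2 or 3 rises in place of 5, and the Y-linked covariate gave 1.

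Of 20 cardiac transcription factors none rose and 2 fell in limma (10%, against 4.47% of all genes), with a median of -0.05. The falls were Isl1, of the second heart field, and Tbx3, of the conduction system (-0.65 ± 0.18, SE, limma adjusted p = 0.0258). Isl1 was not above background at E16.5 and was at least 1.73-fold lower there than at E14.5. Its E14.5 mean of 5.81 was the highest of the 6 stages. The day before, the Isl1 mean was 5.05, with 1 of 3 arrays above background. No E11.5 array was above background for Isl1 (mean 4.90), so its level did not decline steadily over the series. The call of Tbx3 was lost on leaving out any array but E16.5 replicate 1. Neither fall passed with the Y-linked covariate in limma (adjusted p = 0.157 for Isl1 and 0.42 for Tbx3). Nkx2-5 (-0.23), Gata4 (-0.17), Tbx5 (0.03) and Hand2 (-0.04) were among those that did not pass.

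Ckmt2, Ckm and Perm1, genes of muscle energy supply, were among the steadier rises. In the list of regulators and creatine kinases 3 rose (23.1%) and 2 fell (15.4%) among 13, against 5.21% and 4.47% of all genes. The median was 0.34. Ckmt2, the creatine kinase of muscle mitochondria, had 8.18, 8.55 and 8.89 at E16.5 and 6.61, 6.53 and 6.60 at E14.5, 3.89-fold (1.96 ± 0.15, SE, limma adjusted p = 1.55e-08). Ckm, its cytosolic partner, had 12.03, 12.07 and 11.83 at E16.5 and 10.16, 10.27 and 9.96 at E14.5, 3.59-fold. Perm1, a muscle regulator of mitochondrial genes, had 9.21, 9.25 and 9.36 at E16.5 and 7.79, 7.74 and 7.58 at E14.5, 2.97-fold. No E16.5 array came near an E14.5 array in these 3 genes, and all passed with the Y-linked covariate and without any 1 replicate. The falls were Esrrb, an orphan nuclear receptor (1.77-fold lower at E16.5), and Ppargc1a, the coactivator PGC-1 alpha (-0.52). Only 1 fall passed without E16.5 replicate 2, E16.5 replicate 3 or any E14.5 replicate, and none with the covariate in limma. The related receptors Esrra (0.07) and Esrrg (-0.39) and the fatty acid receptor Ppara (0.46) did not pass.

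Oxidative phosphorylation gave 6 rises (37.5%, against 5.21% of all genes) and no fall among 16 (median 0.31). The largest were heart and muscle forms of cytochrome oxidase subunits. Cox8b had 12.06, 11.95 and 12.54 at E16.5 and 10.59, 10.55 and 10.35 at E14.5, 3.22-fold (1.69 ± 0.17, SE, limma adjusted p = 3.12e-07). Cox7a1 rose 1.71-fold and Cox6a2 1.53-fold, without overlap, and Ndufa4 rose 1.55-fold. The subunits made in all tissues, Cox4i1 (0.21) and Cox5a (0.00), did not pass. Fatty acid uptake and oxidation gave 6 rises (28.6%) and no fall among 21 (median 0.34). Acaa2, the last thiolase of the oxidation cycle, had 9.57, 9.99 and 10.23 at E16.5 and 8.97, 9.18 and 8.80 at E14.5, 1.93-fold. Acadvl and Acadm, the dehydrogenases for very long and medium chains, rose 1.69-fold and 1.47-fold. Cpt1b, the gate for entry into mitochondria, gave 0.34 and did not pass. The fatty acid count was 2 without E16.5 replicate 3 and 3 without E14.5 replicate 2, and it was 0 with the Y-linked covariate, where the oxidative phosphorylation count was 1, Cox8b. No fatty acid gene passed in limma there, and Acaa2 had an adjusted p of 0.169.

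Glycolysis split by isozyme, with 3 rises and 3 falls among 16 (median -0.21). That was 18.8% in each direction, against 5.21% and 4.47% of all genes. Slc2a1, the basal glucose transporter of the fetus, had 10.31, 10.11 and 9.59 at E16.5 and 11.09, 11.17 and 11.23 at E14.5, 2.24-fold lower at E16.5. Slc2a4, the insulin-responsive transporter, rose by 0.46. Muscle enolase Eno3 rose 1.55-fold and muscle phosphofructokinase Pfkm 1.42-fold, while lactate dehydrogenase Ldha was 1.47-fold lower at E16.5 and Pgam1, the widespread phosphoglycerate mutase, fell by 0.49. The calls were thus upward for muscle forms and downward for general forms, while the muscle mutase Pgam2 (0.12) did not pass. The falls were 1 without E16.5 replicate 3, E14.5 replicate 2 or E14.5 replicate 3, and with the Y-linked covariate none of the 16 passed in limma. Of 15 genes of the hypoxia response 2 rose (13.3%) and 1, Slc2a1 again, fell (6.67%), with a median of -0.04. Among all tested genes 5.21% rose and 4.47% fell. Egln3, a prolyl hydroxylase that senses oxygen, had 8.81, 8.41 and 8.82 at E16.5 and 7.47, 7.40 and 7.12 at E14.5, 2.55-fold. Ndrg1, a stress-responsive gene, rose 2.02-fold, and Vegfa, Pdk1 (0.00) and P4ha1 (-0.23) did not pass. No gene of the list passed with the Y-linked covariate in limma (adjusted p = 0.133 for Egln3, 0.29 for Ndrg1 and 0.0693 for Slc2a1).

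Among genes of cell division, calls were more frequent for DNA replication than for mitosis. Of 24 DNA replication genes none rose and 4 fell, a share of 16.7% where 4.47% of all genes fell. The median was -0.28, and 23 of the 24 changes were negative. Mcm2, of the helicase that opens origins, had 8.99, 9.12 and 8.68 at E16.5 and 9.43, 9.50 and 9.33 at E14.5, 1.41-fold lower at E16.5. Cdt1, which loads that helicase, was 1.5-fold lower, with Gins2 and Mcm5 at 1.40-fold and 1.34-fold. E16.5 replicate 3 was the lowest array for Mcm2, Mcm5 and Cdt1. Without that replicate no replication gene passed in limma, nor without E14.5 replicate 2 or with the Y-linked covariate. The count was 1 without E14.5 replicate 1 and 2 without E14.5 replicate 3. Of 20 genes of mitosis and cytokinesis 1 fell, the kinase Aurka (1.42-fold lower at E16.5, limma adjusted p = 0.0162), a share of 5% where 4.47% of all genes fell, and none rose (median -0.21). The call of Aurka was lost without E16.5 replicate 3 or E14.5 replicate 3, and with the Y-linked covariate (adjusted p = 0.564). Plk1, a second mitotic kinase, gave -0.42 (limma adjusted p = 0.131). Among 14 inhibitors of the cell cycle Cdkn1c, the imprinted inhibitor p57, was 1.95-fold lower at E16.5, with 11.57, 11.77 and 10.99 there and 12.41, 12.26 and 12.56 at E14.5. Gadd45b rose 1.58-fold, a call that was lost on leaving out any array but E16.5 replicate 3. These were the only calls, 7.14% of the list in each direction, where 5.21% of all genes rose and 4.47% fell. Neither inhibitor passed with the Y-linked covariate in limma (adjusted p = 0.165 for Cdkn1c and 0.678 for Gadd45b).

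The list around Lin28, a brake on the maturation of let-7 microRNAs, had the largest share of falls: 7 of 11 fell and none rose (median -0.50), where 4.47% of all genes fell. Igf2bp1, an RNA-binding protein of fetal growth and a let-7 target, had 8.26, 7.88 and 7.68 at E16.5 and 8.98, 8.99 and 9.02 at E14.5, 2.07-fold lower at E16.5. Arid3b, a chromatin protein, had 5.46, 5.43 and 5.45 at E16.5 and 6.10, 6.17 and 6.38 at E14.5, 1.71-fold lower. Igf2bp3 and Plagl2 were 1.57-fold and 1.55-fold lower, and Ccnd2, a D-type cyclin, fell by 0.50. Lin28a (-0.14) and Lin28b (0.11) themselves did not pass. The falls therefore lay among targets and partners. The count was 3 without E16.5 replicate 3, 4 without E14.5 replicate 3 and 0 with the Y-linked covariate, where the 7 had adjusted p above the threshold in limma.

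Growth factors of the insulin-like family and imprinted growth genes gave 3 rises and 2 falls among 17 (median -0.03). That was 17.6% and 11.8% of the list, against 5.21% and 4.47% of all genes. Apart from Dlk1 and Cdkn1c, described above, the calls were binding proteins. Igfbp7, which is found in vessel walls, had 9.70, 9.77 and 9.49 at E16.5 and 8.24, 7.99 and 8.09 at E14.5, 2.92-fold, and Igfbp4 rose by 0.87. Igfbp2 had 5.73, 5.89 and 5.61 at E16.5 and 7.15, 6.86 and 6.97 at E14.5, 2.38-fold lower at E16.5. Igf2 (-0.02), Igf1 (0.22) and the receptor Igf1r (-0.13) did not pass. Only Dlk1 passed with the Y-linked covariate.

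Among signalling pathways, 7 of 17 genes of the Wnt list fell and none rose (median -0.31), and the other 10 did not pass. The 7 falls were 41.2% of the list, against 4.47% of all genes. Rspo3, a secreted amplifier of Wnt signals, had 5.71, 5.27 and 5.45 at E16.5 and 7.37, 7.49 and 7.59 at E14.5, 4.02-fold lower at E16.5 (-2.01 ± 0.22, SE, limma adjusted p = 1.26e-06). Its E14.5 mean of 7.48 was the highest of the 6 stages, with 6.36 the day before, and its E16.5 mean of 5.48 was the lowest. Wnt5a, a ligand of the non-canonical branch, had 7.09, 6.70 and 6.65 at E16.5 and 8.24, 8.31 and 8.17 at E14.5. The secreted antagonists Sfrp1 and Dkk3 were 2.80-fold and 2.31-fold lower, and the receptors Fzd1 (-0.66) and Fzd2 (-0.84) fell. The falls took in a ligand, an amplifier, antagonists and receptors, while the canonical targets Axin2 (-0.31) and Lef1 (-0.13) did not pass. The Y-linked covariate left 3 of the 7 falls.

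In the Notch list, a pathway of artery and vessel wall formation, 7 of 15 rose, none fell and 8 did not pass (median 0.19). The 7 rises were 46.7% of the list, against 5.21% of all genes. Nrarp, a feedback target, had 8.37, 8.61 and 8.47 at E16.5 and 6.92, 6.95 and 6.98 at E14.5, 2.89-fold (1.53 ± 0.16, SE, limma adjusted p = 5.35e-07). Notch4, the receptor of endothelium, rose 2.26-fold, Notch1 by 0.67 and Notch3, of pericytes, by 0.56. The targets Hey1 (1.60-fold) and Heyl (0.63 on the log2 scale) rose, whereas Hes1 (-0.05) and Hey2 (-0.07) and the ligands Jag1 (-0.10), Dll4 (0.19) and Dll1 (0.08) did not pass. Receptors and targets therefore passed without their ligands. The count was 4 without E16.5 replicate 2, E16.5 replicate 3 or E14.5 replicate 3, and 2 with the Y-linked covariate.

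In the BMP and TGF-beta list 1 of 21 rose and 4 fell (median 0), or 4.76% and 19%. Of all genes tested 5.21% rose and 4.47% fell. Bmp4, a ligand, had 5.66, 5.91 and 5.51 at E16.5 and 7.07, 6.89 and 6.87 at E14.5, 2.38-fold lower at E16.5. Tgfb2 and Bmp7, further ligands, were 1.92-fold and 1.74-fold lower. The Id genes, which BMP induces, split: Id1 rose 2.11-fold and Id2 fell by 0.77. None of these 5 passed with the Y-linked covariate in limma, where Bmp7 had an adjusted p of 0.0517.

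Genes that answer to glucocorticoids, the hormones that mature fetal organs late in gestation, gave 5 rises and no fall among 13 (median 0.34). These rises were 38.5% of the list, against 5.21% of all genes. Errfi1, a feedback inhibitor of EGF receptors, had 9.31, 9.75 and 9.80 at E16.5 and 7.72, 7.80 and 7.70 at E14.5, 3.69-fold. The kinase Sgk1 had 8.44, 9.26 and 9.28 at E16.5 and 7.63, 7.59 and 7.57 at E14.5, 2.63-fold. The clock gene Per1 rose 2.30-fold and Klf9 1.56-fold (limma adjusted p = 0.0492). Fkbp5 (0.06) and the hormone receptor Nr3c1 (0.02) did not pass, and none of the 13 passed with the Y-linked covariate in limma, where Errfi1 had an adjusted p of 0.0598. The count was 3 without E16.5 replicate 1 or any E14.5 replicate. Genes that respond quickly to tissue dispersal gave 2 rises among 21 (median 0.33), a share of 9.52% where 5.21% of all genes rose. These were Junb (1.92-fold) and Klf2, a factor induced by blood flow, with 8.52, 8.85 and 8.40 at E16.5 and 6.61, 6.69 and 6.52 at E14.5, 3.96-fold. The call of Junb was lost without E16.5 replicate 1, E14.5 replicate 2 or E14.5 replicate 3. Fos (0.46), Egr1 (0.16) and Atf3 (0.11) did not pass. The count was 6 when only the arrays of the compared stages were fitted, and 1, Klf2, with the Y-linked covariate, where Junb had a limma adjusted p of 0.191.

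Of 17 interferon and MHC class I genes 6 rose (35.3%, against 5.21% of all genes) and none fell (median 0.26). Ifitm3, a membrane protein that blocks virus entry and is present in endothelium, had 7.47, 7.99 and 8.07 at E16.5 and 6.25, 6.25 and 6.21 at E14.5, 3.04-fold. Ifitm1 rose 1.96-fold, Ly6e and Ifi27 1.70-fold each, and B2m, the light chain of MHC class I, by 0.54. Ly6e averaged 6.46 at both E13.5 and E16.5 and 5.69 at E14.5. The induced genes Isg15 (0.23), Ifit1 (-0.07) and Ifit3 (-0.02) did not pass. The Ifitm genes lie close in sequence, so their probes may share signal. The count was 4 without E16.5 replicate 3 and 2 with the Y-linked covariate. Markers of macrophages gave 2 falls among 9 (22.2%, against 4.47% of all genes), the lysozymes Lyz1 and Lyz2. Lyz2, not above background at E16.5, was at least 1.5-fold lower, while Csf1r (0.02) and Cd14 (0.02) did not pass. The call of Lyz2 was lost when any array other than E16.5 replicate 1 was left out. Platelet markers gave no call in limma among 8; Pf4 was above background on 2 arrays at E16.5 and none at E14.5 (limma adjusted p = 0.203). Of the neural crest and Schwann cell list 1 gene could be tested, the neurotrophin receptor Ngfr, which rose 1.61-fold from a level above background on 1 of 3 E14.5 arrays and did not pass with the Y-linked covariate (limma adjusted p = 0.0714).

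The day between was described from the E15.5 arrays. At E15.5 against E14.5, 313 genes were higher (2.52% of those tested) and 208 lower (1.68%), 4.20% in all, whereas at E16.5 against E15.5 no gene passed in limma (528 had an unadjusted p under 0.05). These steps share arrays with the 2-day comparison and with each other, and the genes below were chosen for their 2-day change, so that the place of E15.5 is a description with no test and rests on the same 3 E14.5 arrays. Of the 199 genes called with a change of 2-fold or more, the E15.5 mean lay between the stage means in 193 and beyond the E16.5 mean in 6, and it was nearer to E16.5 in 192. In the median gene E15.5 had reached 78.6% of the 2-day change (quartiles 70.5% and 85%). Cldn5 had a mean of 8.51 at E15.5, Col2a1 5.28 and Ckm 11.61. The E15.5 step counted 2 probes up and 0 down with the Y-linked covariate in limma, against 406 and 273 without it. In the last step 1 probe passed. It belongs to Mkks, a chaperonin-like gene of the basal body, named because it was the only call, and it is not the brightest probe of that gene; it had 7.12, 6.11 and 6.53 at E16.5 (1.73 ± 0.22, SE, limma adjusted p = 0.00135).

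Changes of these 2 days were then set against those of the first 2 days of the series, E13.5 against E11.5, which share no array with them. The difference between the changes passed for 726 genes (5.85%), higher in the last days for 343 (2.76%) and lower for 383 (3.09%). Hbb-y differed most, by -7.2 ± 0.45 on the log2 scale (SE, limma adjusted p = 2.59e-10): it rose by 3.20 in the first days and fell by 4.0 in the last. Krt19, Tnnt1 and Chn2, an inhibitor of Rac signalling, likewise rose early and fell late. Tnnt1 changed by 1.29 in the first 2 days and -1.84 in the last. Chn2 had 6.04, 5.93 and 5.92 at E16.5 and 7.22, 7.09 and 7.15 at E14.5, and its changes differed by -3.37. These genes therefore peaked between the ends of the series.

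Other genes rose more, or fell less, in the last 2 days than in the first. Rgcc, a regulator of the cell cycle found in endothelium, had 7.19, 7.71 and 7.65 at E16.5 and 5.48, 5.64 and 5.90 at E14.5, 3.59-fold, with a difference of 2.34 from its early change. Cldn5 and Aoc3 differed by 2.30 and 2.21. Myl1, a fast skeletal light chain, fell in both periods but less in the last, with changes of -0.67 and -3.19, which gave a difference of 2.51. Its fall in the last 2 days lost the call without E16.5 replicate 2, E14.5 replicate 1 or E14.5 replicate 3. Col6a1 showed no called difference (-0.06, limma adjusted p = 0.956), having risen in both. Ckm rose less in the last 2 days than in the first, with a difference of -2.04, and Dcn likewise with -1.38. With the Y-linked covariate 68 probes were higher and 86 lower, against 437 and 545 without it.

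**Figure D4:**
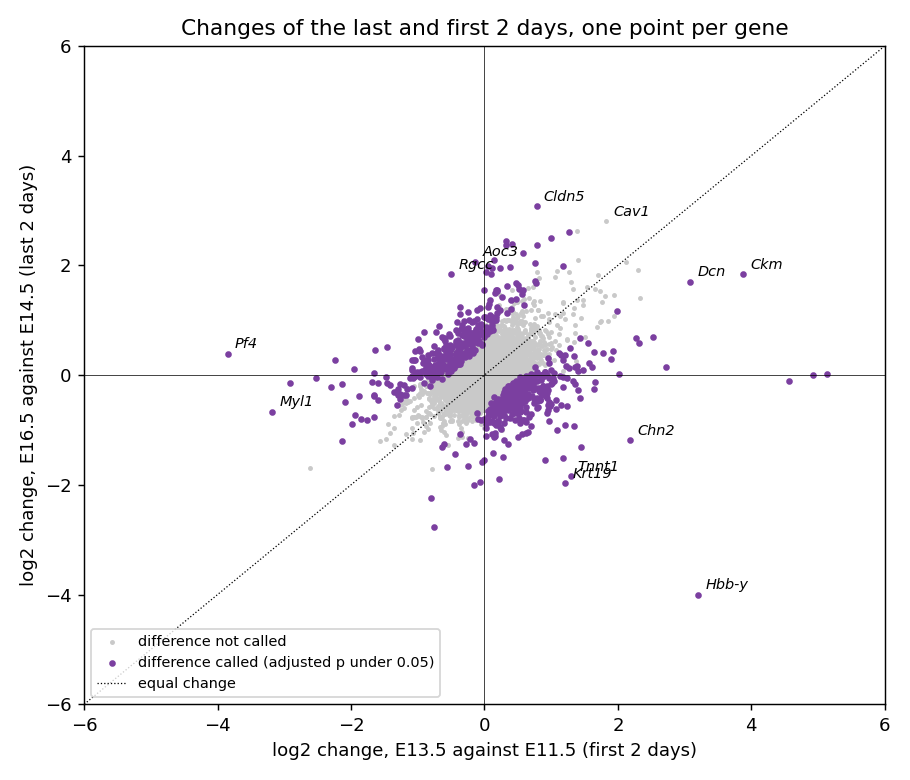
Log2 change of each of the 12409 tested genes at E16.5 against E14.5 (vertical) and at E13.5 against E11.5 (horizontal); purple points had a called difference between the changes and the dotted line marks equal change. Hbb-y is alone at the lower right, with a rise of 3.20 in the first days and a fall of 4.0 in the last, and Cldn5 is at the top.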

How the data were processed

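The authors deposited a table of intensities on a linear scale, already quantile-normalized, since its columns once sorted agreed within 0.0874%. GenomeStudio 2011.1 stands in the submitters' processing notes, without settings. The labels give biotin-labelled cRNA from total RNA. A further table with 36 unmapped columns of per-sample values was not used here.

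The intensities were background-corrected with normexp (limma 3.58.1, R 4.3.3, offset 16) and put on log2. A probe was tested if above 105.4, the mode plus 1.64 SD of the spread below it (5.02 on log2), on at least 3 arrays; 25372 of 45281 were. Symbols came from the platform annotation (34807 probes found in RefSeq GRCm38.p6). A gene is represented by its tested probe with the highest mean. Wt1, Tnnt2 and Mki67 had no named probe tested here. Precision is set by having 3 arrays a stage.

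All 18 arrays entered 1 limma fit (lmFit, eBayes) with a coefficient per stage. P-values were adjusted by Benjamini-Hochberg over the 25372 probes, with a threshold of 0.05. The named genes are the 15 largest rises and 15 largest falls that passed without overlap, the 4 largest differences in each direction between the last and the first 2 days among genes that passed, up to 4 passing members of each list by size (the 2 largest changes where fewer than 2 passed), and 12 fixed genes. Further members and Mkks were named after their values were seen. The comparison, the 33 lists and the rules were chosen with earlier results of these data known. A stage not above background on any of its arrays gives a bound: the brighter mean against the mean of the lowest signal above background on each array of the dim stage. The alternatives were other background corrections, normalization, filters, array weights, variance prior, arrays fitted and a replicate block. They also included a Y-linked covariate and the mean over a gene's probes. Each E16.5 and E14.5 replicate was left out in turn, but no replicate of another stage. For E16.5 and E15.5 same-numbered arrays deviated together (r = 0.283, 0.19 and 0.333), so those numbers may pair the samples, though the labels do not say so.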

Additional observations from a re-analysis of the deposited data

Results flagged for a closer look

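The change of the last 2 days (E16.5 against E14.5) differed from that of the first 2 days (E13.5 against E11.5) in the named genes below, by the limma contrast of the 2 changes on the log2 scale with an adjusted p under 0.05. The difference was positive for the capillary and vessel genes Cldn5 (2.30), Aqp1 (1.5), Rbp7 (1.98), Gpihbp1 (1.65), Aoc3 (2.21) and Rgcc (2.34). It was also positive for the connective tissue genes Scara5 (2.12) and Dpt (2.05), for the imprinted Dlk1 (1.34) and for the muscle genes Dhrs7c (1.59), Cavin4 (1.96), Myom2 (1.29) and Myl1 (2.51). Other connective tissue and muscle genes had a called negative difference, among them Dcn (-1.38), Ckm (-2.04) and Casq2 (-0.82). Of the 20 fibroblast genes tested, 3 had a called positive difference and 4 a negative one. The difference was negative for the embryonic globins Hbb-y (-7.2) and Hba-x (-2.46) and for the muscle isoforms Tnnt1 (-3.13), Tnni2 (-1.54) and Myl7 (-1.12). It was negative too for Krt19 (-3.18), Col2a1 (-2.01), Lyz1 (-1.44), Rspo3 (-1.86), Ntm (-1.88), Cd44 (-2.11), Fstl4 (-1.41), Arhgef4 (-1.56) and Chn2 (-3.37).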

How the results depend on the processing

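The 130 named genes had 2207 changes recomputed, under up to 17 alternatives each, of which 2005 kept direction and call, 188 lost the call and 9 gained it. The 5 that changed sign all belong to Myh7 (0.00 at first): -0.58 with the Y-linked covariate, -0.23 without E16.5 replicate 1 (the lowest of a range up to 0.32 without E16.5 replicate 3), -0.08 without E16.5 replicate 2, -0.02 without E14.5 replicate 1 and -0.07 as the mean of its probes. With the Y-linked covariate 66 calls were lost. For E16.5 against E14.5, 853 probes rose and 746 fell; array weights gave 1300 and 1204, the covariate 156 and 65, and leaving out a replicate 518 to 929 and 370 to 902. For E15.5 against E14.5 (406 and 273) array weights gave 745 and 657, and the covariate 2 and 0. Leaving out an E14.5 replicate gave 223 to 252 and 128 to 146, and the arrays of the compared stages alone gave 418 falls. No E15.5 replicate was left out. At E16.5 against E15.5 the 1 probe became 0 without background correction or with offset 50, and 1 to 2 without an E16.5 replicate. For the last minus the first 2 days (437 higher, 545 lower) array weights gave 876 and 919, and the covariate 68 and 86. Leaving out an E14.5 or E16.5 replicate gave 286 to 512 and 381 to 599, while no E11.5 or E13.5 replicate was left out. The cause of these shifts was not tested. The weights were 0.711, 1.95 and 0.392 for E16.5 replicates 1 to 3. The other alternatives kept these counts within 1.5 times. Deviations of same-numbered E16.5 and E14.5 arrays correlated at 0.175, 0.105 and 0.0728, each E16.5 array best with its own number; that is a hint from the data and not a pairing in the design. The replicate block gave 963 rises and 881 falls for E16.5 against E14.5, and 1 probe for E16.5 against E15.5. With 3 arrays a stage and signals near background, small changes of dim genes could not be measured.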
